A study of Mus musculus with 6 samples.

Results

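Rab GTPases are small membrane-bound switches that direct vesicle traffic, and the mouse cortex table held 59 of them among 23621 genes. Members were the rows whose gene symbol is Rab followed by a number and, where present, a letter or a further digit. All 59 are annotated as protein coding in GENCODE M21, and they lie on 18 chromosomes. The libraries came from newborn cortex (postnatal day 0) of 3 Tle4-/- null mutant mice and 3 wild-type littermates, all on a mixed background of C57BL/6J, 129S6 and CD1. Tle4 encodes a Groucho-family transcriptional co-repressor of deep-layer cortical neurons, and the study asks how projection neuron identities are set. The labels do not say which litters the animals came from or whether tissue was pooled, so p-values set genotype against the spread between these libraries, which may be partly technical.

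A Rab protein is active when bound to GTP and inactive when bound to GDP. Exchange factors load GTP, GTPase-activating proteins (GAPs) end the active state, and a prenyl tail added with the help of escort proteins anchors the protein in a membrane. GDP dissociation inhibitors (GDIs) take the inactive form back to the cytosol. Each Rab marks particular compartments: endoplasmic reticulum and Golgi, early, recycling or late endosomes, or secretory vesicles. In neurons the family serves axon growth, dendrite formation and the loading and release of synaptic vesicles.

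Libraries held 19155168 to 21486851 counts in the mutants and 18617408 to 21632607 in the wild types. Tle4 itself stood at 69.3, 86.8 and 86.8 CPM (counts scaled to library size) in the mutants, against 198, 142 and 166 CPM in the wild types (log2 fold change -1.06, edgeR adjusted p = 0.0377). The mutants are labelled null, and reads of the gene remained in all 3. Which part of Tle4 the allele removes is not given in the sources used here. The 6 markers of cortical excitatory neurons were present in every library, with summed levels of 1768 to 2339 CPM in the mutants and 2015 to 2310 CPM in the wild types. Sex markers separated the genotypes and set wild-type replicate 3 apart from every other library. Xist, expressed from the inactive X, had 66194 to 79080 counts in the mutants and 11 to 37 in the wild types. The Y-linked Ddx3y had 0 to 2 counts in the mutants, and 1463, 1891 and 2 in wild-type replicates 1, 2 and 3. Eif2s3y, Kdm5d and Uty, also Y-linked, had 0 to 6 counts in the mutants and 0 to 4 in wild-type replicate 3, against 327 to 2154 in the other 2 wild types. That library thus carried neither the Xist signal of the mutants nor the Y-linked signal of the other wild types. Xist status cannot be told apart from genotype. Summed striatal markers (6 genes, of which 4 were lower in every mutant library than in every wild-type library) were 98.8 to 131 CPM in the mutants and 135 to 192 CPM in the wild types. Meningeal markers were low in wild-type replicate 1 (13.1 CPM, against 164 to 449 CPM elsewhere), and choroid plexus markers were high in mutant replicate 3 (96.0 CPM, against 0.356 to 2.46 CPM elsewhere). Whether these marker levels play a part in the values below was not tested. In whole tissue, fewer cells of a type and less RNA per cell cannot be told apart.

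Among the 59 genes, Rab40c was the only one past the threshold, and Rab33b came next by p. Rab40c encodes an atypical Rab with a SOCS box, the segment that couples a protein to a cullin-5 ubiquitin ligase. Rab33b encodes a Golgi Rab that binds Atg16l1 in autophagosome formation. Both were known from earlier results of these data when the family was chosen, and their promoter windows are shown for that reason. The windows are RefSeq sequence on GRCm38.p6, read 5′ to 3′ on the strand of the gene and ended before the first annotated base of the gene. Capitals mark GC boxes (GGGCGG on either strand) and CCAAT boxes (CCAAT on either strand).
Rab40c, chr17:25919728-25919964, minus strand: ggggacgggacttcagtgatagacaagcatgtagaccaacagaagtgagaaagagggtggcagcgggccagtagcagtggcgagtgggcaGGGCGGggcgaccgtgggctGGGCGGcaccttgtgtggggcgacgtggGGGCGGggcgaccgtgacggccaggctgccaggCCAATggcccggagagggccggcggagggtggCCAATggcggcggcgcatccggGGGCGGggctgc
Rab33b, chr3:51483716-51483919, plus strand: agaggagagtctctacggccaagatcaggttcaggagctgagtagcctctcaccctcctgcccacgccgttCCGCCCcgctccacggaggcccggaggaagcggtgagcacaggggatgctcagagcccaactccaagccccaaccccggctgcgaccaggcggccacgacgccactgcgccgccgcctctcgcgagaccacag
The Rab40c window held 4 GC boxes and 2 CCAAT boxes in 237 bases, and the Rab33b window held 1 GC box and 0 CCAAT boxes in 204 bases. GC boxes occur in 30.9% and 25.4% of 32851 RefSeq promoter windows of these lengths, and CCAAT boxes in 32.8% and 29.1%. Neither window held TATAAA (12% and 9.3% of windows), the TCF/LEF core CTTTGA (13.3% and 12%) or the Hes-type site CACGNG (22.3% and 18.8%), each searched on both strands. Their GC content was 71.7% for Rab40c and 68.6% for Rab33b, against medians of 51.9% and 51.5% over all windows. The boxes and sites are matches of letters only. The windows compared with are the first bases of each promoter entry, not ended at the first annotated base of a gene.

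Rab40c fell in the mutant cortex, where its level was 0.408 times that of wild-type cortex. On the log2 scale the change was -1.29 with an SE of 0.13, and the adjusted p of edgeR was 0.00733. This gene (ENSMUSG00000025730) lies on the minus strand of chromosome 17 from 25882114 to 25919727. It stood at 19.8, 23.0 and 21.6 CPM in the mutants, against 49.7, 48.1 and 60.2 CPM in the wild types. The highest mutant library was below the lowest wild-type library by more than the range within either genotype, and the 95% interval of the log2 fold change ran from -1.59 to -0.998. Its closest relative Rab40b, the other SOCS-box member, had 4.77, 2.41 and 4.59 CPM in the mutants and 4.07, 5.66 and 2.96 CPM in the wild types (log2 fold change -0.11, SE 0.34, interval -0.87 to 0.65). Rab40b values of the genotypes overlapped, and at this level its interval is too wide to show whether it moved with Rab40c. Per kilobase of exon, Rab40c was 2.70, 6.19 and 3.05 times Rab40b in the mutants, and 7.91, 5.52 and 13.2 times in the wild types.

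**Figure D1:**
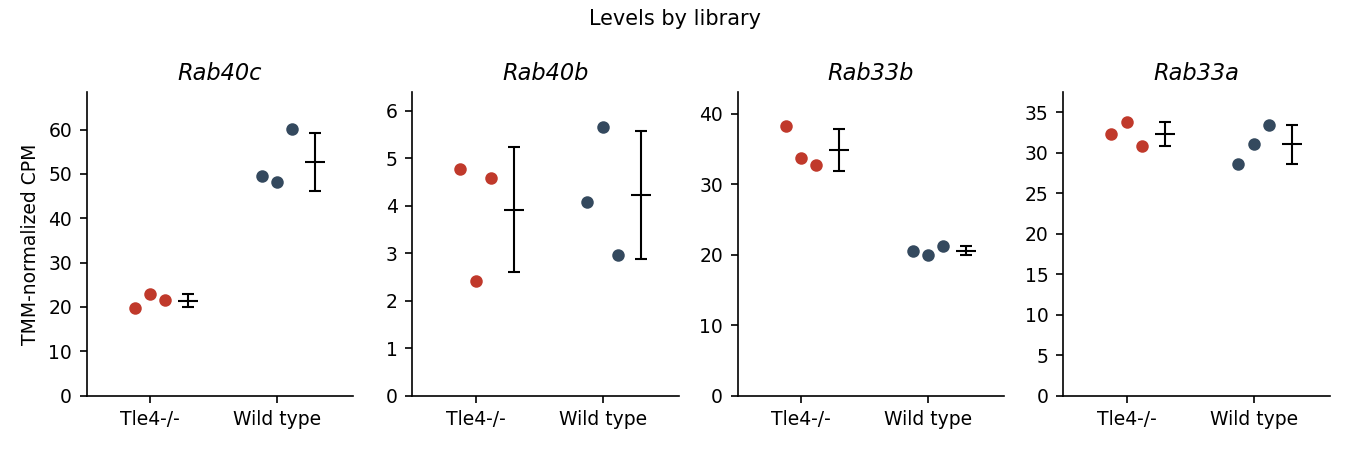
TMM-normalized CPM of Rab40c, Rab40b, Rab33b and Rab33a in each library (points), with the mean and SD of 3 libraries per genotype beside them. Rab40c is at 19.8 to 23.0 CPM in the mutants and 48.1 to 60.2 CPM in the wild types, Rab33b at 32.7 to 38.3 CPM in the mutants and 19.97 to 21.2 CPM in the wild types, and the paralogs Rab40b and Rab33a overlap between genotypes.

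Rab33b had a higher level in the mutant without passing the threshold over all genes. It stood at 38.3, 33.7 and 32.7 CPM in the mutants, against 20.5, 19.97 and 21.2 CPM in the wild types. Every mutant library was above every wild-type library, and the spread was narrow in both (34.9 ± 2.95 CPM in the mutants and 20.6 ± 0.630 CPM in the wild types, SD, n = 3 each). The log2 fold change was 0.76 (SE 0.12, interval 0.49 to 1.04), with an edgeR p of 0.000138 before adjustment and an edgeR adjusted p of 0.0897. By the DESeq2 Wald test on the same counts the adjusted p was 5.65e-05, and the authors' deposited table gives adjusted p of 0.0331 for Rab33b and 2.30e-08 for Rab40c, where 0.288% of its rows are under 0.05. The gene (ENSMUSG00000027739) lies on the plus strand of chromosome 3 from 51483920 to 51496232. Its X-linked paralog Rab33a, also a Golgi Rab, had 32.3, 33.9 and 30.8 CPM in the mutants and 28.7, 31.1 and 33.4 CPM in the wild types (log2 fold change 0.06, interval -0.21 to 0.32). Per kilobase of exon, Rab33b was 0.387, 0.326 and 0.348 of Rab33a in the mutants, and 0.234, 0.210 and 0.208 in the wild types.

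Rab40c lost its call only without mutant replicate 3, the library high in choroid plexus markers (log2 fold change -1.30, edgeR adjusted p = 0.0532). Without that library, 8 genes in the whole table passed. Without wild-type replicate 3, the library with neither sex marker, the log2 fold change of Rab40c was -1.19 (edgeR adjusted p = 0.0259) and that of Rab33b 0.79 (edgeR adjusted p = 0.216). In that fit the Y-linked signal, like Xist, cannot be told apart from genotype. Rab33b missed the threshold in each fit with a library left out, with log2 fold changes of 0.69 to 0.81 and edgeR adjusted p of 0.216 to 0.278.

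Both genes overlap other rows of the table by position, so reads could have been divided between rows, and whether counting used the strand is not given in the sources used here. Rab40c overlaps 4 rows, all on the opposite strand: the coding gene 0610011F06Rik, the processed pseudogene Gm10012, the antisense RNA Gm16278 and the long noncoding RNA Gm26694, which spans the whole gene. Only Gm16278 shares exon bases with Rab40c, 103 of them at its 5′ end. These rows held 0.515 to 10.1 CPM in the mutants and 0.752 to 6.73 CPM in the wild types, and their log2 fold changes ranged from -0.14 to 0.34, with none past the threshold. With the 5 rows summed as 1, the log2 fold change was -0.85 (SE 0.12, edgeR adjusted p = 0.0431). Rab33b overlaps Gm37968 on its own strand, with 0 exon bases shared, and Gm38160 on the other, with 661 exon bases shared. Each had at most 1.51 CPM in a mutant library and 1.34 CPM in a wild-type library, and with the 3 rows summed the log2 fold change was 0.70 (SE 0.12, edgeR adjusted p = 0.121).

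**Figure D2:**
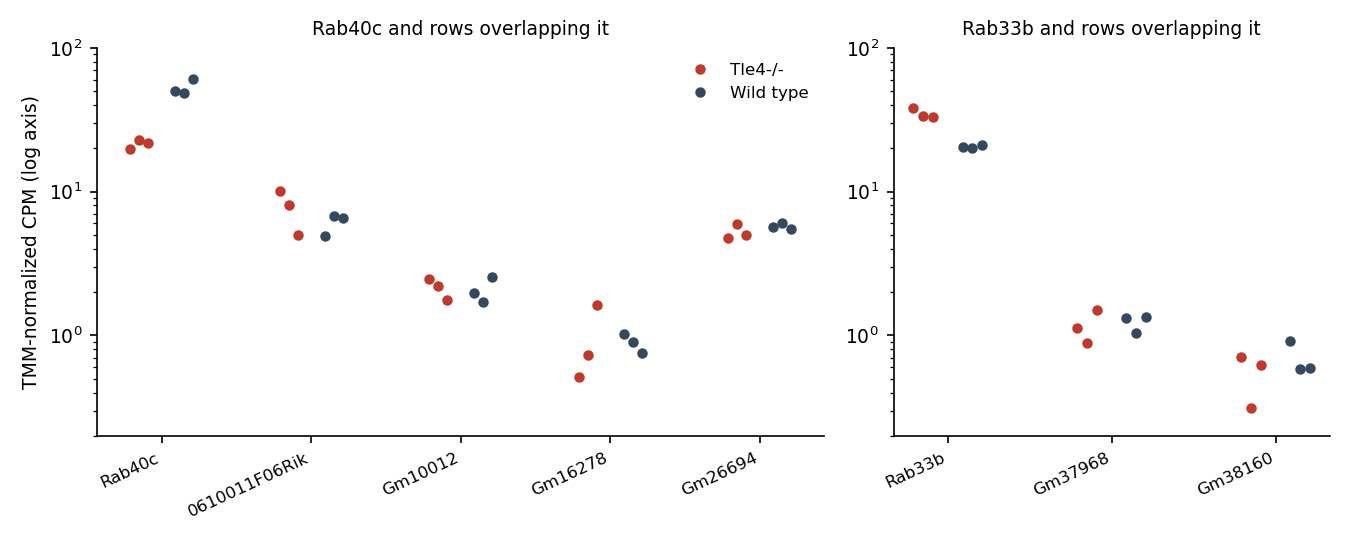
TMM-normalized CPM on a log axis of Rab40c (left) and Rab33b (right) and of the rows that overlap each by position, with 1 point per library and the mutants to the left of the wild types in each pair. The genotypes are separated at Rab40c and Rab33b and overlap at all 6 neighbouring rows.

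Of 43 other genes tested within 0.5 Mb of Rab40c, 0 passed the threshold and 2 had an unadjusted edgeR p under 0.05, Luc7l and the Rab11 effector gene Rab11fip3. Their median log2 fold change was -0.01. Near Rab33b, 11 genes were tested, of which 0 passed and 0 had an unadjusted edgeR p under 0.05, with a median of -0.04. Over all genes tested, 0.111% passed the threshold and 3.45% had an unadjusted edgeR p under 0.05. At those shares, counts this small do not set either locus apart from the whole table.

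Over the family, 53 of the 59 genes had enough counts to be tested. Past the threshold was 1 of these 53 (1.89%), lower in the mutant, against 18 of 16274 genes over the whole table (0.111%, made up of 0.0614% lower and 0.0492% higher). At an unadjusted edgeR p under 0.05 there were 7 members, 4 lower and 3 higher in the mutant (13.2%), against 3.45% of all genes tested (1.73% lower and 1.71% higher). Genotypes did not overlap for 5 of the tested members (9.43%), against 7.93% of all genes tested (3.75% lower and 4.18% higher). Of these members Rab40c, Rab11b, Rab34 and Rab8a were lower in every mutant library and Rab33b was higher. Rab40c and Rab33b, known from earlier results of these data when the family was chosen, are among the 7 and the 5. Rab40c is also the 1 member past the threshold, so these shares are no test of the family. The median log2 fold change of the tested members was 0.04, and that of all genes -0.01. Most members lay near 0, as did most genes tested. The median absolute log2 fold change was 0.110 for the members and 0.116 for all genes. Of 53 members, 42 had an absolute log2 fold change under 0.25 and 5 exceeded 0.5. For 28 the whole 95% interval lay within 0.5 of 0. The shares of all genes within these limits were not computed. In sum, Rab transcripts made up 0.461% to 0.495% of counts in the mutants and 0.466% to 0.487% in the wild types, and the genotypes overlapped.

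**Figure D3:**
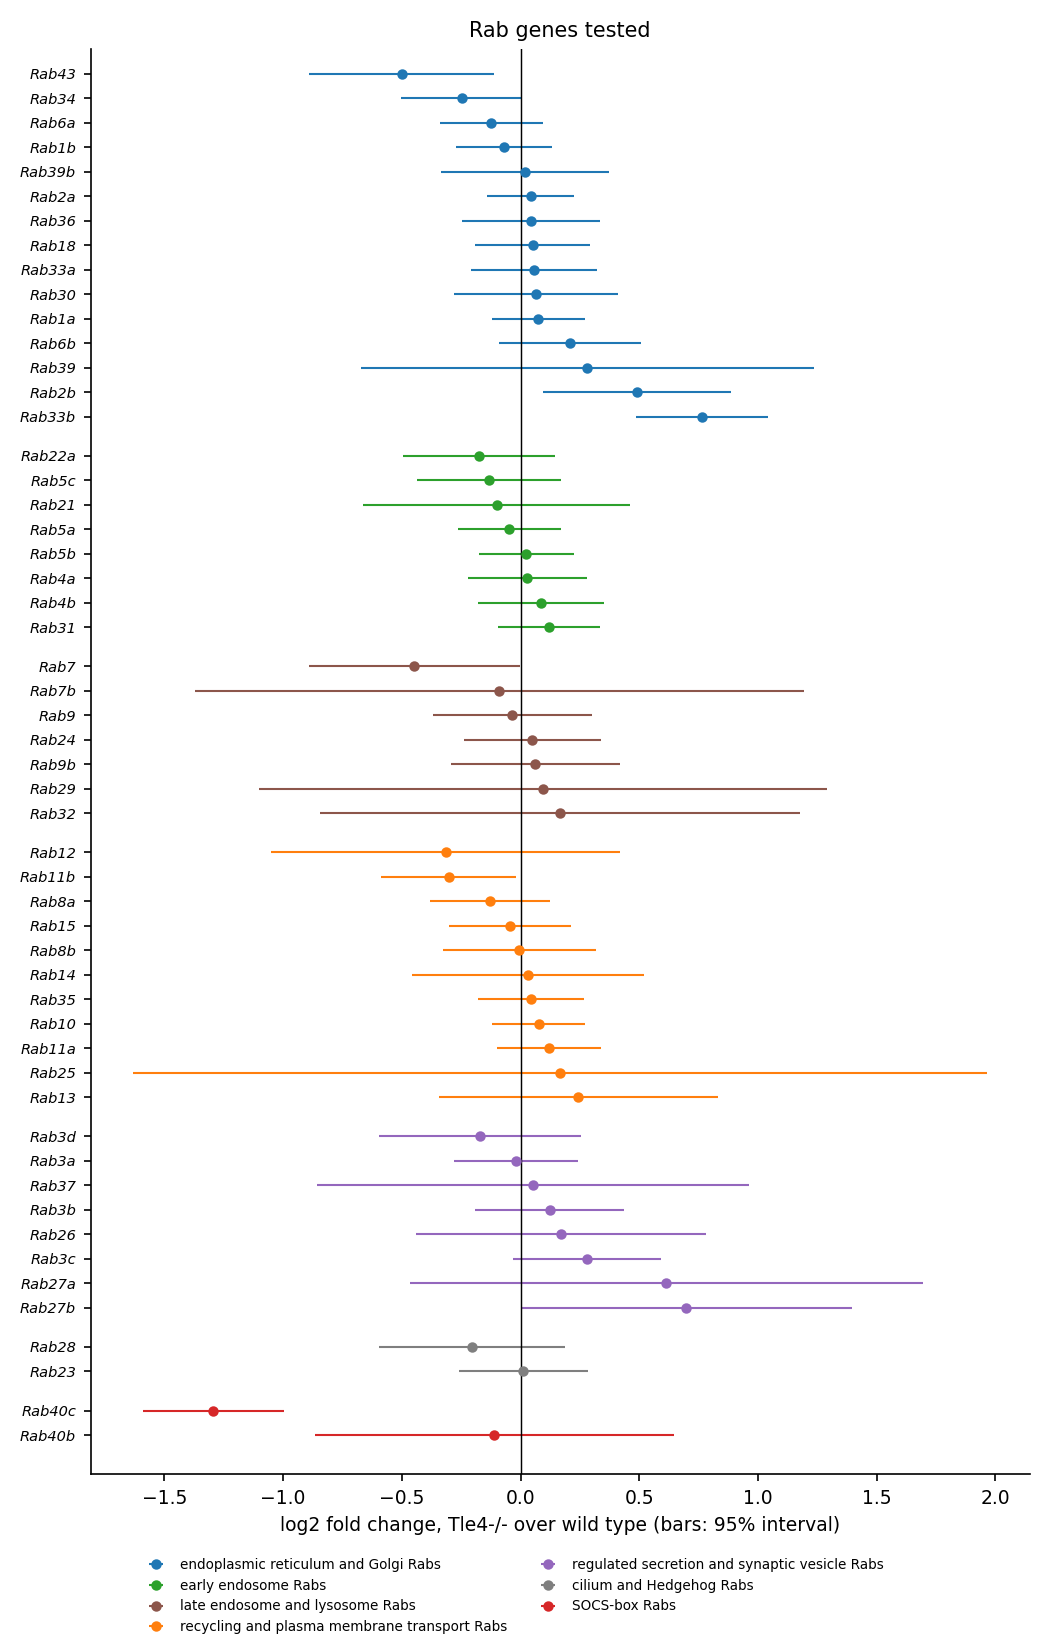
Log2 fold change (Tle4-/- over wild type) with its 95% interval from the edgeR fit for each of the 53 Rab genes tested, coloured by the compartment in which the protein acts. Rab40c, at -1.29, and Rab33b, at 0.76, lie farthest from 0, and most other intervals include 0.

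Golgi and endoplasmic reticulum Rabs were the largest role group, with 15 of 16 genes tested, 0 past the threshold and a median log2 fold change of 0.05. Beside Rab33b, this group held Rab43 and Rab2b among the members with an unadjusted edgeR p under 0.05. Rab43, which acts in traffic between endoplasmic reticulum and Golgi, had 18.8, 21.2 and 27.3 CPM in the mutants, against 26.8, 32.8 and 35.7 CPM in the wild types (log2 fold change -0.50, SE 0.17, edgeR adjusted p = 0.9996). One mutant library, replicate 3, reached the range of the wild types. Rab43 shares 4164 exon bases with the coding row RP23-4F16.12 on its own strand. That row held 0.539 to 2.39 CPM in the libraries (log2 fold change 0.56, SE 0.50). With all rows overlapping Rab43 added, the log2 fold change of Rab43 was -0.43. Rab2b, the lower paralog of the Golgi Rab Rab2a, had 50.2, 32.3 and 52.2 CPM in the mutants, against 32.6, 32.9 and 30.4 CPM in the wild types (log2 fold change 0.49, edgeR adjusted p = 0.9996). Mutant replicate 2 lay within the wild-type range, so the difference rests on the other 2 mutant libraries. Rab2b shares exon bases with Tox4 and Gm43766, and with those rows added its log2 fold change was 0.15.

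Rab34, a Golgi Rab, had 34.8, 34.8 and 38.2 CPM in the mutants, against 45.1, 39.3 and 43.7 CPM in the wild types (log2 fold change -0.25, SE 0.11, interval -0.50 to 0.01). The lowest wild-type library was only slightly above the highest mutant library.

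Rab2a had the highest level of all members, at 165 ± 3.89 FPKM in the mutants and 162 ± 3.91 FPKM in the wild types (SD, n = 3 each), and a log2 fold change of 0.04 (interval -0.14 to 0.23). Rab6a, which directs retrograde transport to the Golgi, stood at 88.7 ± 9.43 FPKM in the mutants and 97.5 ± 1.80 FPKM in the wild types. Its brain-enriched paralog Rab6b stood at 76.5 ± 5.40 FPKM in the mutants and 66.8 ± 12 FPKM in the wild types. The 95% intervals of both included 0 (log2 fold changes -0.12 for Rab6a and 0.21 for Rab6b). For Rab6b the log2 fold change was 0.07 without wild-type replicate 3, its lowest library. Rab1b, which acts in export from the endoplasmic reticulum, stood at 69.3 ± 3.26 FPKM in the mutants and 73.4 ± 2.37 FPKM in the wild types.

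Recycling and plasma membrane Rabs had 11 of 12 genes tested, 0 past the threshold and a median log2 fold change of 0.03. Rab10, which carries membrane to the growing axon and dendrites, was the highest of them at 101 ± 7.62 FPKM in the mutants and 96.5 ± 2.47 FPKM in the wild types. Rab11b, a Rab of recycling endosomes that is abundant in brain, had 82.0, 87.3 and 112 CPM in the mutants, against 116, 116 and 115 CPM in the wild types (log2 fold change -0.30, SE 0.13, edgeR adjusted p = 0.9996). Wild-type libraries were nearly equal, and mutant replicate 3 was close to them. The log2 fold change was -0.45 without mutant replicate 3, -0.21 without mutant replicate 1 and -0.25 without mutant replicate 2, and in all fits with a library left out except the first of these the unadjusted edgeR p was above 0.05. A processed pseudogene of the same gene, Rab11b-ps2 on chromosome 19, held 50.3, 55.8 and 56.0 CPM in the mutants and 57.6, 51.9 and 55.6 CPM in the wild types, and reads of Rab11b may have been counted there. Summed with it, Rab11b had a log2 fold change of -0.21. Its paralog Rab11a had 201, 187 and 197 CPM in the mutants and 172, 199.6 and 167 CPM in the wild types (log2 fold change 0.12, interval -0.10 to 0.34).

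Rab8a, which acts in transport to the plasma membrane and the cilium, had 41.8, 35.1 and 40.3 CPM in the mutants, against 42.4, 42.1 and 43.5 CPM in the wild types (log2 fold change -0.13, interval -0.38 to 0.13).

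Late endosome and lysosome Rabs had 7 of 8 genes tested and 0 past the threshold, with a median log2 fold change of 0.05. Rab7, which drives maturation of late endosomes and their fusion with lysosomes, had 131, 135 and 192 CPM in the mutants, against 255, 168 and 203 CPM in the wild types (log2 fold change -0.45, SE 0.19, edgeR adjusted p = 0.9996). Values of the genotypes overlapped, and the highest value was that of wild-type replicate 1, the library low in meningeal markers. Whether marker levels play a part in the Rab7 values was not tested. Its log2 fold change was -0.64 without mutant replicate 3, the highest of the mutants, and -0.28 without wild-type replicate 1. Rab24, an autophagy-related Rab, was at 25.9 ± 0.942 FPKM in the mutants and 25.2 ± 3.34 FPKM in the wild types.

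Early endosome Rabs showed the smallest range of log2 fold changes among the groups of 7 or more tested genes, from -0.17 to 0.12 over 8 genes. Rab5a, Rab5b and Rab5c, which control fusion of early endosomes, had log2 fold changes of -0.05 (interval -0.26 to 0.17), 0.02 (-0.18 to 0.22) and -0.13 (-0.43 to 0.17). Rab5c gave 0.03 without wild-type replicate 1, its highest library. Rab5a stood at 43.8 ± 0.845 FPKM in the mutants and 45.7 ± 3.93 FPKM in the wild types. No member had an unadjusted edgeR p under 0.05.

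Secretory and synaptic vesicle Rabs had 8 of 8 genes tested and 0 past the threshold. Their median log2 fold change was 0.15, with 6 genes above 0 and 2 below. Rab3a, the main Rab of synaptic vesicles, had 244, 221 and 216 CPM in the mutants and 257, 240 and 194 CPM in the wild types (log2 fold change -0.02, interval -0.28 to 0.24). Rab3c had 286, 253 and 252 CPM in the mutants, against 224, 255 and 172 CPM in the wild types (log2 fold change 0.28), and wild-type replicate 3 was the low library. Without that library its log2 fold change was 0.14. Rab3b gave a log2 fold change of 0.12, and of -0.01 without wild-type replicate 3. Rab3d gave -0.17, and 0.03 without mutant replicate 1. Rab27b, which acts in exocytosis of secretory granules, had 15.1, 7.64 and 7.25 CPM in the mutants, against 4.94, 7.45 and 6.07 CPM in the wild types (log2 fold change 0.70, SE 0.31, edgeR adjusted p = 0.9996). Mutant replicate 1 alone stood above the wild types by a clear margin, and without it the log2 fold change was 0.28.

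**Figure D4:**
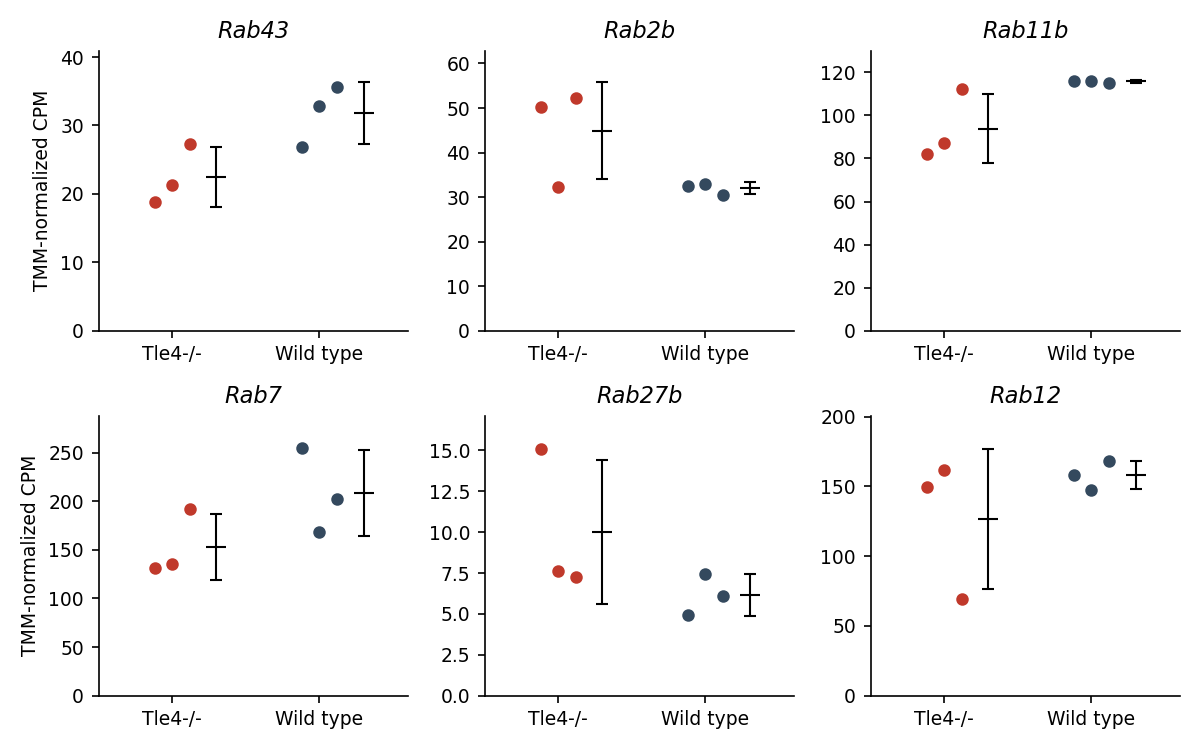
TMM-normalized CPM in each library (points), with mean and SD of 3 libraries per genotype, for the 5 other members with an unadjusted edgeR p under 0.05 and for Rab12, chosen for its uneven mutant libraries. The genotypes do not overlap for Rab11b, where mutant replicate 3 (112 CPM) is close to the wild types, and overlap for the others, and Rab12 is low in mutant replicate 3 alone.

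Some members varied within a genotype more than between genotypes. Of the 42 members at a mean of at least 10 CPM, 8 had a coefficient of variation over 20% in a genotype. The medians of the same 42 members were 7.40% in the mutants and 9.51% in the wild types. The share of all genes at that level with such a spread was not computed. Rab12, a Rab of recycling endosomes, had 150, 162 and 69.2 CPM in the mutants, against 158, 148 and 168 CPM in the wild types. Rab14, which acts between Golgi and endosomes, had 246, 244 and 175 CPM in the mutants, against 252, 156 and 243 CPM in the wild types. Rab21, of early endosomes, had 35.6, 20.3 and 23.5 CPM in the mutants, against 22.0, 27.4 and 35.9 CPM in the wild types. These 3 genes overlap no other row of the table. Mutant replicate 3 was the low mutant library for Rab12 and Rab14, and mutant replicate 2 for Rab21. Mutant replicate 3 was also the library high in choroid plexus markers, and whether marker levels play a part was not tested.

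By position, 17 of the 59 Rab genes overlap another row, and 14 share exon bases with it. Of the 16 overlapping members that were tested, 6 had an unadjusted edgeR p under 0.05 (Rab40c, Rab33b, Rab43, Rab2b, Rab11b and Rab7), and of the 37 without overlap, 1 did (Rab27b). Over the whole table the shares were 3.55% of 6529 overlapping genes and 3.38% of 9745 others. Rab40c and Rab33b were known from earlier results of these data when the family was chosen. The split among the Rab genes is therefore no test of overlap. With overlapping rows summed, Rab43 had a log2 fold change of -0.43, Rab11b of -0.30 and Rab7 of -0.42.

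Mean levels of the members over the 6 libraries ran from 0.00888 to 164 FPKM. In 26 members the mean was at least 10 FPKM, in 18 it was 1 to 10 FPKM, and in 15 it was under 1 FPKM. Rab2a, Rab10, Rab6a, Rab6b and Rab1b had the highest FPKM and made up 42.4% of the Rab total. Rab10 and Rab6a, next to each other in that order, did not differ beyond their spread. The authors' FPKM divides counts by a length that was constant across libraries and 0.329 to 2.73 times the exon length of the gene in GENCODE M21, so the order depends on that length. Per kilobase of GENCODE exon the top 5 were Rab2a, Rab6a, Rab3a, Rab10 and Rab6b. On that scale Rab40c stood at 6.94 ± 0.508 CPM per kilobase in the mutants and 17.0 ± 2.14 in the wild types, and Rab33b at 9.87 ± 0.834 in the mutants and 5.82 ± 0.178 in the wild types (SD, n = 3 each).

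**Figure D5:**
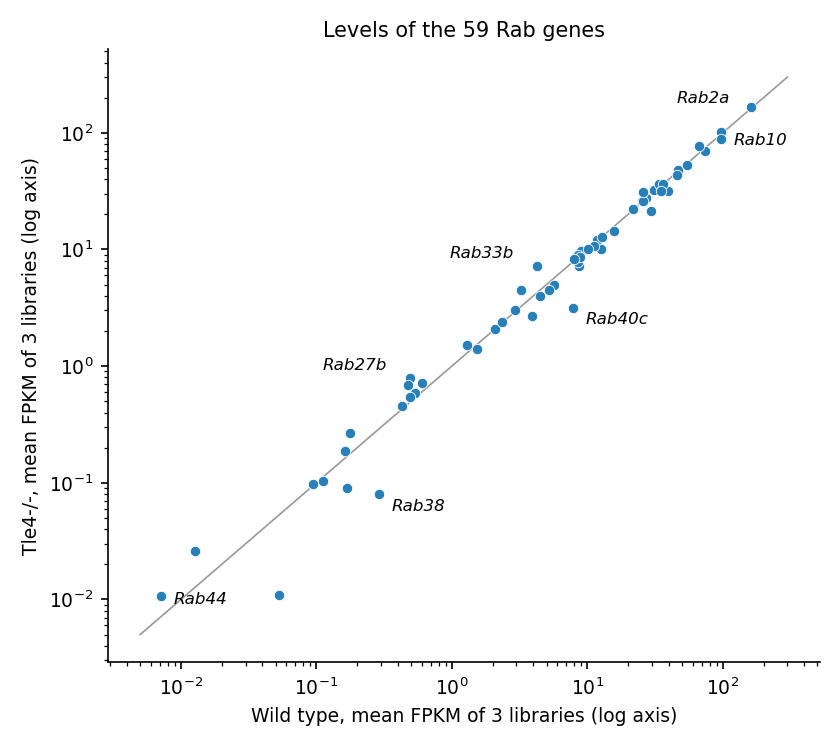
Mean FPKM of 3 libraries in the Tle4-/- cortex (vertical, log axis) against the wild-type cortex (horizontal, log axis) for the 59 Rab genes, with the line of equal levels. Levels run from 0.00888 to 164 FPKM over all 6 libraries, and among genes above 1 FPKM Rab40c lies farthest below the line and Rab33b farthest above it.

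The 6 members with too few counts to pass the filter of the edgeR fit were Rab17, Rab19, Rab20, Rab38, Rab42 and Rab44. A fit with no filter beyond 1 count tested all 59 members, and only Rab40c passed the threshold. Rab38, known from melanosome biogenesis, had 2, 1 and 4 counts in the mutants and 6, 12 and 8 counts in the wild types. Its genotypes did not overlap. The authors' deposited comparison gives it a p of 0.00919 before adjustment and 0.968 after it. Each of the others had at most 12 counts in any library, so differences between genotypes were not detectable at this depth.

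The X-linked members numbered 4. Rab33a, Rab39b, Rab9 and Rab9b had log2 fold changes of 0.06, 0.02, -0.03 and 0.06, and their genotypes overlapped. Rab40c and Rab33b are autosomal, and whether their levels vary with sex was not tested. Rab23, which restrains Hedgehog signalling, gave 0.01 (interval -0.26 to 0.28), and Rab28, which acts at cilia, gave -0.20. The Rab28 value was -0.06 with wild-type replicate 3 left out, and -0.38 with wild-type replicate 1 left out.

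Proteins that run the Rab cycle were examined in 108 further rows, and 0 passed the threshold. At an unadjusted edgeR p under 0.05 there were 6, 3 lower and 3 higher in the mutant, beside 3.45% of all genes. For GDIs, prenylation and escort proteins, 7 were tested with a median log2 fold change of -0.01. Chm, a Rab escort protein, stood at 45.0 ± 7.81 CPM in the mutants and 43.7 ± 5.40 CPM in the wild types (log2 fold change 0.04). Of 29 exchange factors 0 had an unadjusted p under 0.05, with a median of -0.05. The smallest p were those of Dennd1c (log2 fold change -0.79) and Rgp1, a partner of the Rab6 exchange factor Ric1 (-0.42).

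GAP genes gave 3 higher and 0 lower of 33 rows at an unadjusted edgeR p under 0.05, beside 1.71% higher and 1.73% lower over all genes, and 0 passed the threshold. Tbc1d5, a GAP for Rab7 that works with retromer, stood at 109 ± 27.5 CPM in the mutants and 75.3 ± 7.51 CPM in the wild types (log2 fold change 0.53). Tbc1d2 gave 0.75 and Rabgap1l 0.21. Effectors gave 3 lower and 0 higher of 35 at the same unadjusted level, beside 1.73% lower and 1.71% higher over all genes, and 0 passed the threshold. Rilp, which links Rab7 to dynein, stood at 0.852 ± 0.151 CPM in the mutants and 1.79 ± 0.209 CPM in the wild types (log2 fold change -1.07). Rph3a, the Rab3 and Rab27 effector rabphilin, stood at 81.9 ± 0.659 CPM in the mutants and 104 ± 10.1 CPM in the wild types (-0.35). Rab11fip3 gave -0.33. The edgeR adjusted p of each was 0.9996.

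Of 4 partners of SOCS-box proteins in the cullin-5 ligase, 0 had an unadjusted edgeR p under 0.05. Cul5 stood at 60.3 ± 5.43 CPM in the mutants and 64.1 ± 12.9 CPM in the wild types. Rnf7, its RING subunit, gave a log2 fold change of -0.13, and Tceb1, elongin C, 0.24. Atg16l1, the autophagy partner of Rab33b, stood at 86.2 ± 8.70 CPM in the mutants and 91.1 ± 6.94 CPM in the wild types, and Tbc1d25, a GAP of Rab33b, at 22.9 ± 2.10 CPM in the mutants and 21.4 ± 1.74 CPM in the wild types.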

How the data were processed

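Cortex RNA of 6 newborn mice was analysed from 1 deposited table. HISAT2 2.0.4, StringTie, edgeR and GRCm38.p4 appear in the submitters' processing notes. Not given in the sources used here are the annotation release, the counting program and its strand setting. For each gene and library the authors deposited a whole-number count and an FPKM, per the file headers, with a p-value of their own comparison, raw and adjusted. Recomputed from the table, the deposited FPKM is the count over the library total and a fixed length per gene, so it holds no measurement beyond the counts. Gene positions were taken from the table (GRCm38).

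Counts were fitted with edgeR 4.0.16 in R 4.3.3 over the whole table: filterByExpr, TMM scaling, robust quasi-likelihood, 2-sided, Benjamini-Hochberg over all 16274 genes tested, threshold 0.05. A log2 fold change is mutant over wild type. CPM is on TMM-scaled library sizes. Intervals are at 95%. With 3 libraries against 3, an exact permutation test of 1 value could not go below 0.1, so none was used. The steps were tested on simulated data. Alternatives used DESeq2 1.42.0 and limma 3.58.1.

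The members, role groups and regulator lists were chosen with earlier results of these data known, Rab40c and Rab33b among them. Named are these 2 genes, members with an unadjusted p under 0.05, the 5 highest by FPKM, the highest of each role group, paralogs, and the 2 smallest p of each regulator list, of which 1 gene is not reported here. Any other gene was named after its values were seen. Sgsm3 fills 2 rows of the table, each counted. RefSeq promoters were found for 48 members. Same-numbered libraries of the genotypes were not paired: their deviations correlated at -0.09, 0.12 and -0.02. Mutant replicate 1 with wild-type replicate 3 gave 0.13, and mutant replicate 3 with wild-type replicate 1 gave 0.11. All other differently numbered pairs were negative, and pairing in another order was not tested.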

Additional observations from a re-analysis of the deposited data

How the results depend on the processing

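Rab40c was past the threshold and lower in every alternative except without mutant replicate 3. Leaving out each library gave log2 fold changes of -1.35 to -1.19 with edgeR adjusted p of 0.0181 to 0.0532, and 0 to 1 Rab genes and 8 to 19 genes in all past the threshold. The DESeq2 Wald test called 2 Rab genes, Rab40c and Rab33b (the log2 fold change of Rab33b was 0.76), and 58 genes in all. With a replicate block, 9 genes passed, Rab40c had an edgeR adjusted p of 0.0384 and Rab33b of 0.409. The block was fitted although the replicate numbers give no sign of pairing. Fewer samples are in the fits with a library left out; for the other changes the cause was not tested. Limma on log2(FPKM + 1) gave -1.08 for Rab40c and 0.63 for Rab33b. Of 291 alternative values of the other 22 named members, 0 passed the threshold and 9 changed sign, all 9 with a library left out. Summing rows of other members than Rab40c and Rab33b was chosen after seeing the data. Depth limits the 6 untested genes.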
